A study of Mus musculus with 6 samples.

Results

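The collagen chain genes are the genes that encode the alpha chains from which every collagen protein is built. They were taken as every row of the gastrocnemius (Gas) muscle count table whose mouse symbol had the form Col, a number, a, and a number, which gave 44 genes of 34714 in the table. They were grouped as 11 fibrillar chains, 8 basement membrane chains and 25 other chains, and 41 of the 44 had enough counts to be tested. The study asked how loss of the microRNA miR-92b changes skeletal muscle. RNA-seq was done on Gas from wild-type (WT) and miR-92b knockout (M92KO) mice, all 8 weeks old, with 3 libraries per group. No treatment was named for either group. The paper's general methods describe tests of muscle performance and endurance, and after them an overnight fast before tissue was taken. Whether the mice of these libraries went through those tests is not stated there. The WT mice were C57BL/6 males of matched age. The M92KO mice were a purchased male C57BL/6JGpt line in which the microRNA gene is deleted in every cell of the body, so muscle fibres, fibroblasts, vessels and nerves in the dissected muscle all carried the deletion. Mir92b was not analysed here, and the knockout was not checked from these counts. Nothing in the labels says whether the 3 libraries of a group came from separate mice, and the p-values measure only the spread between these libraries. Library totals were 38246649 to 48209846 counts in WT and 33160508 to 37019640 in M92KO, the smallest WT library holding more counts than the largest M92KO library.

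Collagens are proteins of the extracellular matrix in which 3 alpha chains wind into a triple helix. Fibrillar collagens, mainly types I and III, form the tensile fibres of tendon and of the connective tissue sheaths of muscle, whereas type IV collagen forms the sheet-like network of the basement membrane around each muscle fibre and capillary. Fibroblasts make most of the fibrillar chains in muscle, and the remaining chains decorate fibres, link the basement membrane to its surroundings or sit in cell membranes. In whole muscle, fewer cells of a type and less RNA per cell cannot be told apart.

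Values are given as CPM, counts scaled to a common library size by TMM, and levels are compared between genes only after division by the length of the longest annotated transcript (CPM per kilobase). On that scale, in WT muscle, Col3a1 was the highest chain at 125 ± 16.7 CPM per kilobase (SD, n = 3), followed by Col4a1 at 95.7 ± 6.15, Col1a2 at 75.8 ± 19.9, Col4a2 at 59.9 ± 3.42 and Col1a1 at 49.8 ± 15.6. Col6a1 came next at 32.4 ± 2.46 CPM per kilobase, then Col6a2 at 26.4 ± 1.73, Col15a1 at 22.4 ± 1.10 and Col5a3 at 20.9 ± 1.26. Col4a1 and Col1a2, Col1a2 and Col4a2, Col4a2 and Col1a1, Col1a1 and Col6a1, and Col15a1 and Col5a3 were neighbours in this order whose ranges of mean ± SD overlapped. In WT muscle 10 of the tested chains had a mean over 100 CPM, 11 lay between 10 and 100 CPM and 20 lay at or under 10 CPM.

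All collagen counts together made up 0.404, 0.336 and 0.325% of WT libraries 1 to 3 and 0.221, 0.323 and 0.301% of M92KO libraries 1 to 3. The share was 0.355% ± 0.0428 in WT and 0.282% ± 0.0538 in M92KO (SD, n = 3 each), and the 2 groups met without overlapping, WT library 3 lying just above M92KO library 2. Fibrillar chains gave 0.176% ± 0.0372 of WT and 0.128% ± 0.0213 of M92KO counts, and their highest M92KO value, 0.145%, lay below their lowest WT value, 0.153%. The share of basement membrane chains was 0.119% ± 0.00717 in WT and 0.101% ± 0.0246 in M92KO, with overlapping groups. Other chains gave 0.0603% ± 0.00796 and 0.0527% ± 0.00808, also overlapping. Without WT replicate 1 the WT mean of all chains was 0.330%, and without M92KO replicate 1 the M92KO mean was 0.312%.

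**Figure D1:**
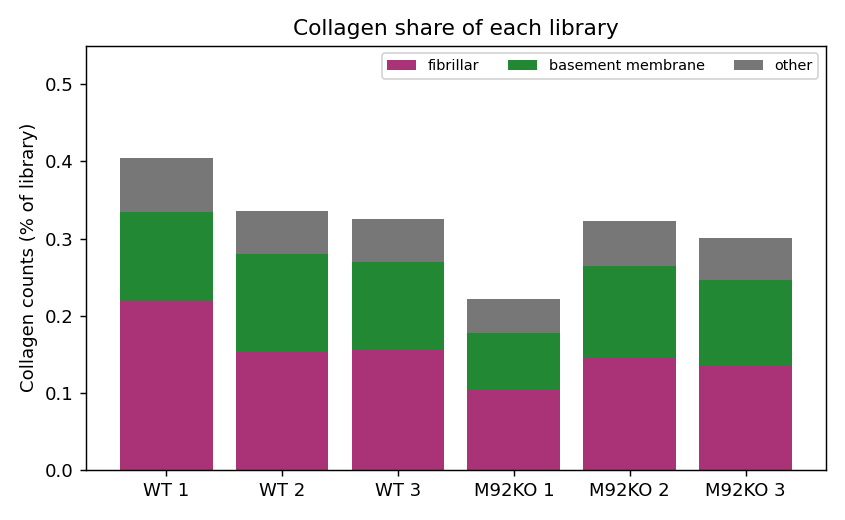
Collagen counts as a percent of all counts of each library, stacked by class (fibrillar, basement membrane and other chains), 1 bar for each of the 6 libraries. WT 1 is the highest bar at 0.404% and M92KO 1 the lowest at 0.221%, and the other 4 bars lie between 0.301 and 0.336%.

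In the test across all 15788 genes that passed the filter on low counts (edgeR quasi-likelihood test), no gene and so no collagen chain reached an adjusted p of 0.05. The smallest adjusted p of any gene was 0.124 and that of a collagen chain was 0.185, for Col23a1. At an unadjusted p of 0.05, 11 of the 41 chains (26.8%) were lower in M92KO muscle, against 6.92% of all genes tested. No chain was higher at that level, against 5.47% of all genes. The direction was negative for 31 chains and positive for 10, and their median log2 fold change (M92KO minus WT) was -0.33, whereas the median of all genes was close to 0 with 50.02% of genes negative. The 3 M92KO values lay below all 3 WT values for 11 of the tested chains, against 9.58% of genes, and above them for 0 chains, against 8.77% of genes. DESeq2 gave 322 genes with an adjusted p under 0.05, and 2 chains, Col23a1 (adjusted p = 0.0242) and Col1a2 (adjusted p = 0.0497), were among those lower in M92KO, against 1.36% of the genes to which it gave an adjusted p. It gave none to 7 of the 41 chains.

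The 11 chains were Col1a1, Col1a2, Col5a3, Col11a2, Col24a1 and Col27a1 among the 10 fibrillar chains tested, Col4a3 and Col4a4 among 8 basement membrane chains, and Col6a6, Col22a1 and Col23a1 among 23 other chains. The log2 fold changes had a median of -0.46 in fibrillar chains, all 10 of them negative, -0.26 in basement membrane chains and -0.20 in other chains, and a difference between the classes was not tested. In 4 of the 11, Col1a2, Col5a3, Col23a1 and Col27a1, the unadjusted p stayed under 0.05 whichever single library was left out. The call was lost for Col1a1 without WT replicate 1 or M92KO replicate 1, for Col6a6 without WT replicate 2 or 3, for Col22a1 without WT replicate 1 or 2 or M92KO replicate 2, and for Col11a2 and Col24a1 without WT replicate 2 or 3 or M92KO replicate 2 or 3. Collagen transcripts are long and GC-rich (median longest transcript 6048 bases and GC 55.1%, against 3302 bases and 49.8% over all genes tested), and genes lower in M92KO were longer (median 4122 bases) than genes higher in M92KO (2752 bases). After a correction of the counts for GC content and transcript length, 7 of the chains remained under 0.05 (against 6.57% of all genes lower in that fit), Col4a3, Col4a4, Col22a1 and Col24a1 being lost, and the median was -0.28.

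**Figure D2:**
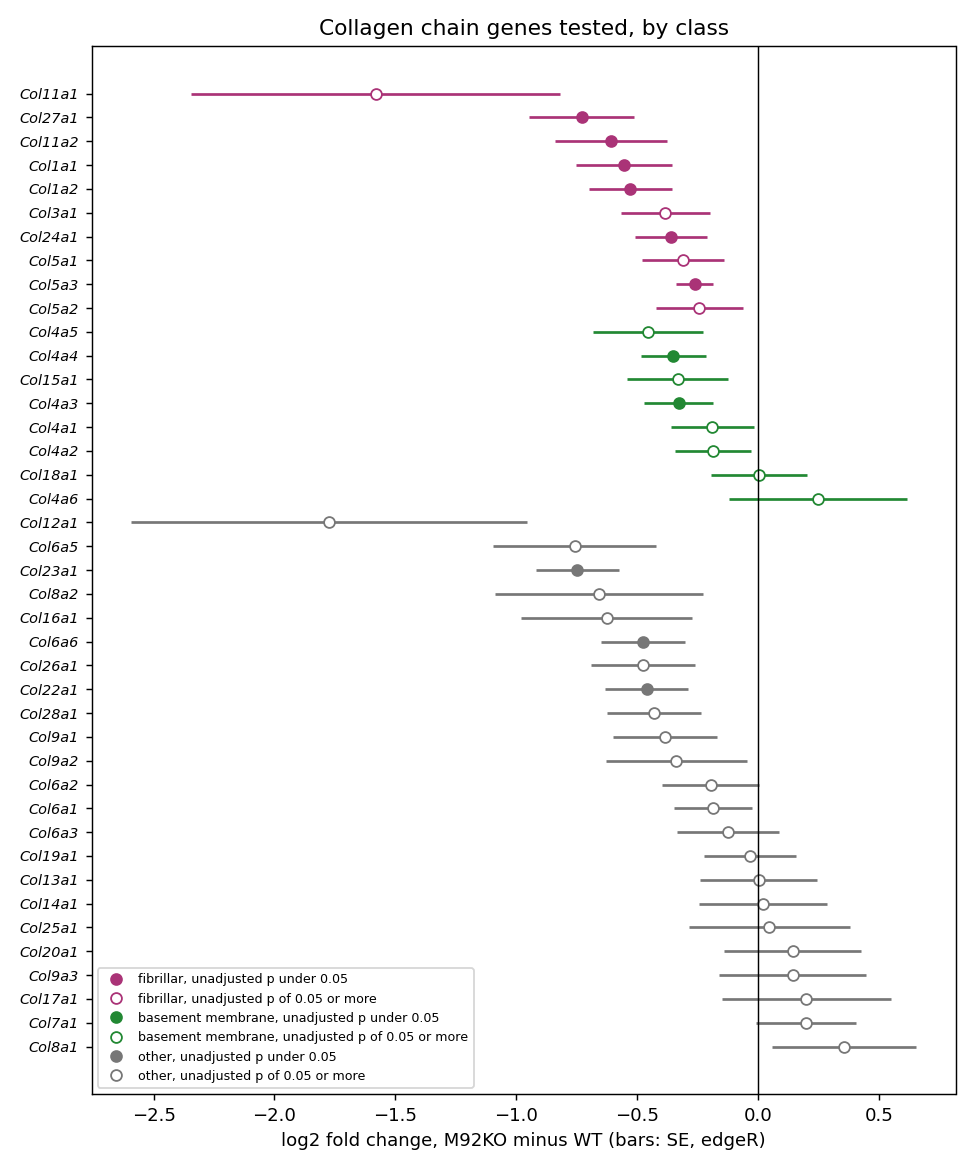
Log2 fold change (M92KO minus WT, edgeR) of the 41 tested collagen chains, 1 row per chain in class order, with bars for the standard error and filled points for an unadjusted p under 0.05. All 10 fibrillar chains lie left of 0, and the long bars of Col11a1 and Col12a1 mark the chains with the widest spread between libraries.

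Type I collagen, the main protein of tendon and bone, is a trimer of Col1a1 and Col1a2 chains. Col1a2 (ENSMUSG00000029661, GRCm38 chr6:4504814-4541544, plus strand) stood at 528, 335 and 354 CPM in WT libraries 1 to 3 and at 245, 306 and 293 CPM in M92KO libraries 1 to 3. Col1a1 (ENSMUSG00000001506, GRCm38 chr11:94936224-94953042, plus strand) stood at 402, 233 and 251 CPM in WT and 171, 223 and 209 CPM in M92KO. For both chains the groups did not overlap, WT library 1 was far above the other WT libraries and M92KO library 1 was the lowest of all. WT library 1 was also the library with the most RNA of the bone gene Ibsp, at 34.9 CPM. M92KO library 1, the lowest for both chains, held the next most Ibsp RNA. The part of bone RNA in these values was not tested. The log2 fold change was -0.53 for Col1a2 (SE 0.17, edgeR adjusted p = 0.283) and -0.55 for Col1a1 (SE 0.20, edgeR adjusted p = 0.328). Without WT replicate 1 they were -0.29 and -0.27, and without replicate 1 of both groups -0.20 and -0.16. The ratio of Col1a1 to Col1a2 counts held between 0.695 and 0.761 in all 6 libraries.

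Because Col1a2 was among the 4 chains whose p stayed under 0.05 whichever library was left out, its promoter is printed here, with that of Col23a1, the chain with the smallest p. The windows run from 250 bases before the RefSeq start site to 50 bases from it on (GRCm38.p6, 5′ to 3′ on the strand of the gene), Col1a2 at chr6:4505368-4505667, plus strand and Col23a1 at chr11:51289670-51289969, plus strand. Capitals mark 3 textbook promoter motifs searched on both strands, the CCAAT box (CCAAT, or ATTGG on the other strand), the TATA box (TATAAA or TTTATA) and the GC box (GGGCGG or CCGCCC), none of which contains another.
Col1a2: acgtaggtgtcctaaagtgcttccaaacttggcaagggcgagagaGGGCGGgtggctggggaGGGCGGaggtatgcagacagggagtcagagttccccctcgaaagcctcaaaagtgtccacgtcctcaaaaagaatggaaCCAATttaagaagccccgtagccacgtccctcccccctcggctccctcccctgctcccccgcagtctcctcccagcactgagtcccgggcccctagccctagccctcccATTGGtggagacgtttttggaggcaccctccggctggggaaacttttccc
Col23a1: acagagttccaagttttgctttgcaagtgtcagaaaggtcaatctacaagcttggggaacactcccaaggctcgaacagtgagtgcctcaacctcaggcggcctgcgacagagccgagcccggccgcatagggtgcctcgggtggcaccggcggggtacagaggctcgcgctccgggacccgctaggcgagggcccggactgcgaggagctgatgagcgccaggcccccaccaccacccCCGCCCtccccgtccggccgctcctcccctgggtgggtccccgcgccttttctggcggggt
The Col1a2 window held 2 CCAAT boxes and 2 GC boxes, and the Col23a1 window 1 GC box. A window was found for 35 of the 44 chains, some with more than 1 start site, and 23 of these 38 windows (60.5%) held a GC box, against 35.7% of 32851 windows of all genes. A CCAAT box was in 34.2% of the collagen windows and in 37.4% of all windows, and a TATA box in 13.2 and 13.6%.

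Type III collagen, encoded by Col3a1 alone, forms the fine reticular fibres around muscle fibres. Col3a1 (ENSMUSG00000026043, GRCm38 chr1:45311538-45349706, plus strand) stood at 805, 644 and 644 CPM in WT and 379.8, 643 and 582 CPM in M92KO. WT libraries 2 and 3 and M92KO library 2 were nearly equal, and the groups were parted only by fractions of 1 CPM there. Its log2 fold change was -0.38 (SE 0.18, edgeR adjusted p = 0.454) and was -0.07 without replicate 1 of both groups.

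Type V chains nucleate type I fibres and set their width. Col5a3 (ENSMUSG00000004098, GRCm38 chr9:20770050-20815067, minus strand) stood at 137, 122 and 125 CPM in WT and 99.7, 112 and 109 CPM in M92KO. The groups did not overlap, and the libraries within each group lay close together. Its log2 fold change was -0.26 (SE 0.08, edgeR adjusted p = 0.247), and it was -0.21 without WT replicate 1, -0.21 without M92KO replicate 1 and -0.16 without both. Col5a1 stood at 117, 83.3 and 90.6 CPM in WT and 60.2, 91.0 and 83.8 CPM in M92KO, and shares 212 exon bases with antisense genes. Col5a2 stood at 89.9, 62.9 and 65.2 CPM in WT and 46.8, 71.8 and 65.9 CPM in M92KO. In both, M92KO libraries 2 and 3 lay inside the WT range, and the log2 fold changes of -0.31 for Col5a1 (edgeR adjusted p = 0.517) and -0.24 for Col5a2 (edgeR adjusted p = 0.649) turned to 0.01 and 0.10 without replicate 1 of both groups.

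The minor fibrillar chains were expressed at lower levels. Col27a1 (ENSMUSG00000045672, GRCm38 chr4:63214004-63334991, plus strand), a fibrillar chain known from cartilage, stood at 6.12, 5.10 and 4.13 CPM in WT and 3.97, 2.78 and 2.51 CPM in M92KO. The groups came close at WT library 3 and M92KO library 1 but did not overlap, with a log2 fold change of -0.73 (SE 0.22, edgeR adjusted p = 0.258). Col24a1 stood at 18.6, 21.2 and 25.0 CPM in WT and 19.6, 13.9 and 17.1 CPM in M92KO, and its log2 fold change was -0.36 (edgeR adjusted p = 0.385). Col11a2, a type XI chain, stood at 5.58, 6.70 and 7.83 CPM in WT and 5.76, 2.99 and 4.43 CPM in M92KO, with a log2 fold change of -0.61 (edgeR adjusted p = 0.352). In both, the M92KO library 1 value lay inside the WT range and the groups overlapped.

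Col11a1, the partner chain of Col11a2, stood at 17.5, 3.91 and 2.47 CPM in WT and 5.09, 1.34 and 1.54 CPM in M92KO. WT library 1 was several times higher than every other library, and the log2 fold change of -1.58 (SE 0.76, edgeR adjusted p = 0.459) was -0.25 without it and -1.13 without replicate 1 of both groups. Col2a1, the main collagen of cartilage, had 5 to 12 counts in each library and was not tested.

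**Figure D3:**
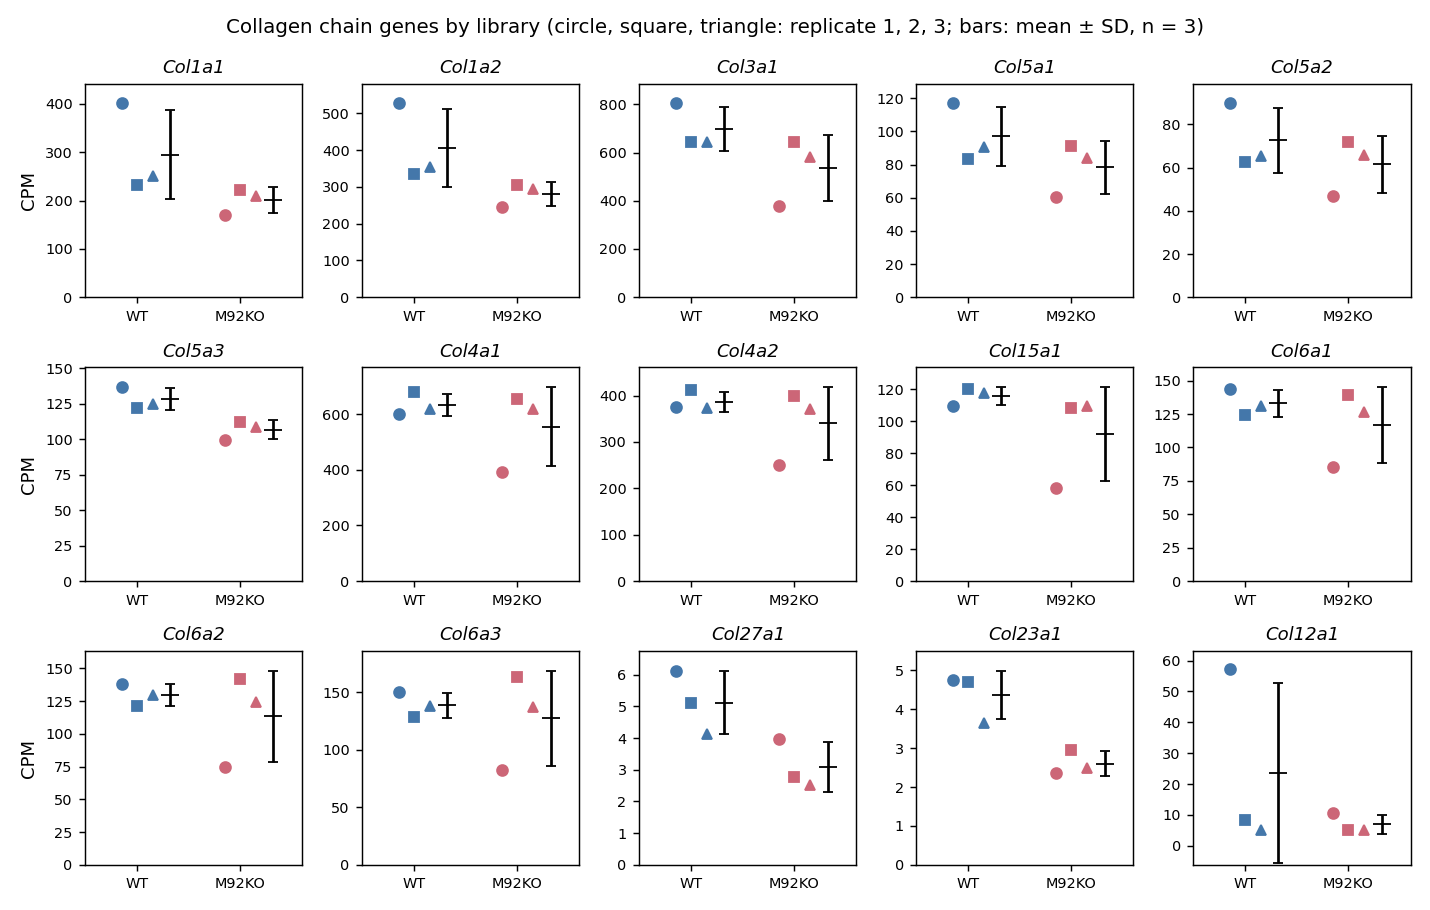
CPM of 15 collagen chains in each library, each panel with its own linear axis that includes 0, with points for replicates 1 to 3 of WT (blue) and M92KO (red) and bars for the mean ± SD (n = 3). The WT and M92KO points are apart for Col1a1, Col1a2, Col5a3, Col23a1 and Col27a1, and barely apart for Col3a1, while for Col4a1, Col15a1 and Col6a1 to Col6a3 M92KO replicate 1 lies alone below the others.

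Type IV collagen is the scaffold of the basement membrane, and its alpha 1 and alpha 2 chains assemble together. Col4a1 (ENSMUSG00000031502, GRCm38 chr8:11198423-11312826, minus strand) stood at 601, 679 and 619.6 CPM in WT and 392, 655 and 621 CPM in M92KO. Col4a2 (ENSMUSG00000031503, GRCm38 chr8:11312805-11449287, plus strand) stood at 375, 412 and 372 CPM in WT and 250.1, 398 and 371 CPM in M92KO. In both, M92KO library 1 was far below the other 5, which lay within a narrow range. The log2 fold change was -0.19 for Col4a1 (SE 0.17, edgeR adjusted p = 0.715) and -0.19 for Col4a2 (SE 0.16, edgeR adjusted p = 0.689), and without M92KO replicate 1 the values were 0.01 and -0.01. The ratio of Col4a1 to Col4a2 counts was 1.57 to 1.67 in the 6 libraries.

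These genes lie head to head on chromosome 8, so that 1 stretch serves as promoter of both, and the windows are printed for that reason. Whether the shared stretch had a part in the steady ratio was not tested. Pairs of the same type on different chromosomes also kept narrow ratios over the libraries. These were 0.695 to 0.761 for Col1a1 to Col1a2, 1.27 to 1.39 for Col5a1 to Col5a2 and 1.06 to 1.15 for Col6a3 to Col6a2. Col4a4 and Col4a3 also lie head to head, on chromosome 1, and their ratio ranged more widely, from 0.944 to 1.34. Each of these 2 chains had only 188 to 440 counts in a library. Col4a1 starts at position 11312826 of the minus strand and Col4a2 at 11312805 of the plus strand (RefSeq, GRCm38.p6), and their windows, chr8:11312777-11313076, minus strand and chr8:11312555-11312854, plus strand, share 78 bases. Each is given 5′ to 3′ on its own strand with the same motifs in capitals.
Col4a1: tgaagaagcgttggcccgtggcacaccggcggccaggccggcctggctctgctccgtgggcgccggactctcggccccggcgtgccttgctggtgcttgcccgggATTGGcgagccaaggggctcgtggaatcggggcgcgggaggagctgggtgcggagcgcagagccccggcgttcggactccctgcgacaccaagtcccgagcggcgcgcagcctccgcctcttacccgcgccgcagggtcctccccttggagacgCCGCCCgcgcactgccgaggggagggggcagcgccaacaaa
Col4a2: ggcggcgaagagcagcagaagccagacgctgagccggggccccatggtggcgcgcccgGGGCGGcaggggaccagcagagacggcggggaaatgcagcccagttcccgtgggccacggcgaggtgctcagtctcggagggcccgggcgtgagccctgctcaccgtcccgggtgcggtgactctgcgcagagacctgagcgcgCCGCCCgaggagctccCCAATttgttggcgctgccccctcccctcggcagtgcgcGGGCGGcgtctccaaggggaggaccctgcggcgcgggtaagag
The Col4a1 window held 1 CCAAT box and 1 GC box, the Col4a2 window 1 CCAAT box and 3 GC boxes, and neither held a TATA box. The exons of the pair share 22 bases, and whether the counting used strand is not given in the sources used here.

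The alpha 3 and alpha 4 chains of type IV, known from the kidney, eye and ear, were present at low levels. Col4a4 (ENSMUSG00000067158, GRCm38 chr1:82448423-82586849, minus strand) stood at 8.70, 11.4 and 8.52 CPM in WT and 7.22, 7.66 and 7.54 CPM in M92KO. The 3 M92KO values were nearly equal and all lay below WT, with a log2 fold change of -0.35 (SE 0.13, edgeR adjusted p = 0.353). Col4a3 (ENSMUSG00000079465, GRCm38 chr1:82586921-82722059, plus strand) stood at 8.55, 9.44 and 7.43 CPM in WT and 7.66, 5.74 and 6.83 CPM in M92KO, overlapping at M92KO library 1, with a log2 fold change of -0.33 (edgeR adjusted p = 0.401). Col4a3 shares 563 exon bases with the antisense gene C430014B12Rik, and reads of the 2 may be mixed. Leaving out a single library ended the call at an unadjusted p of 0.05 for Col4a4 in 4 of 6 cases (WT replicate 2 and each M92KO replicate) and for Col4a3 in 4 of 6 (WT replicates 1 and 2, M92KO replicates 2 and 3).

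The remaining basement membrane chains did not reach an unadjusted p of 0.05. Col4a5 had a log2 fold change of -0.46 (edgeR adjusted p = 0.470) and Col4a6 one of 0.25 (edgeR adjusted p = 0.835). Col15a1, a proteoglycan collagen of the muscle fibre and capillary surface, stood at 109, 120.2 and 118 CPM in WT and 58.2, 108 and 109 CPM in M92KO, again with M92KO library 1 alone below the rest, and its log2 fold change of -0.33 (edgeR adjusted p = 0.576) was -0.09 without it. Col18a1, the source of endostatin, stood at 19.6, 19.6 and 17.8 CPM in WT and 12.6, 23.8 and 20.8 CPM in M92KO. Its log2 fold change was close to 0 with all libraries and 0.23 without M92KO replicate 1.

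Type VI collagen forms beaded filaments around muscle fibres, and loss of its alpha 1 to alpha 3 chains causes muscular dystrophies. Col6a1 stood at 144, 124 and 131 CPM in WT and 85.0, 139.5 and 126 CPM in M92KO. Col6a2 stood at 138, 121 and 129.9 CPM in WT and 74.6, 142 and 124 CPM in M92KO, and Col6a3 at 150.3, 128 and 138 CPM in WT and 82.3, 163 and 137 CPM in M92KO. In all 3 chains M92KO library 1 was the lowest and M92KO libraries 2 and 3 were in the WT range or above it. The log2 fold changes were -0.19 for Col6a1, -0.20 for Col6a2 and -0.12 for Col6a3 (edgeR adjusted p of 0.703, 0.747 and 0.859), and without replicate 1 of both groups they turned to 0.06, 0.08 and 0.17. The ratio of Col6a1 to Col6a2 counts was 0.986 to 1.14.

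Col6a6 (ENSMUSG00000043719, GRCm38 chr9:105687809-105828160, minus strand), which can take the place of alpha 3, stood at 8.22, 9.16 and 8.65 CPM in WT and 4.55, 7.39 and 6.77 CPM in M92KO. The groups did not overlap, and its log2 fold change was -0.48 (SE 0.17, edgeR adjusted p = 0.336). Col6a5 stood at 0.606, 0.725 and 0.398 CPM in WT and 0.317, 0.336 and 0.358 CPM in M92KO, also without overlap, with a log2 fold change of -0.76 (edgeR adjusted p = 0.411). Col6a4 had 2 to 6 counts in each WT library and 0 in each M92KO library, where 3 counts would be 0.0826 to 0.0916 CPM, and was not tested.

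The fibril-associated collagens (FACIT) bind to the surface of fibrils rather than forming them. Col22a1 (ENSMUSG00000079022, GRCm38 chr15:71795795-72034227, minus strand), the chain of the junction between muscle and tendon, stood at 20.4, 24.9 and 16.3 CPM in WT and 16.9, 12.1 and 15.7 CPM in M92KO. The groups overlapped, and its log2 fold change was -0.46 (SE 0.17, edgeR adjusted p = 0.346). Col12a1, a fibre coat chain of tendon and periosteum, stood at 57.3, 8.49 and 5.03 CPM in WT and 10.6, 5.19 and 4.98 CPM in M92KO, and Col16a1 at 24.5, 10.8 and 8.57 CPM in WT and 11.3, 8.30 and 8.84 CPM in M92KO. In both, WT library 1, the library with the most Ibsp RNA, stood far above the rest. Col12a1 had the most negative log2 fold change of the tested chains, -1.77 (SE 0.82, edgeR adjusted p = 0.432), and it was 0.04 without WT replicate 1. For Col16a1 the values were -0.62 (edgeR adjusted p = 0.530) and -0.03.

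The other FACIT chains did not reach an unadjusted p of 0.05 in the fit of all libraries. Col14a1, which coats mature fibrils, stood at 15.3, 12.8 and 13.6 CPM in WT and 7.68, 17.2 and 17.4 CPM in M92KO. Its log2 fold change was 0.02 with all libraries (edgeR adjusted p = 0.984) and 0.32 without M92KO replicate 1. The log2 fold changes of Col9a1, Col9a2, Col9a3, Col19a1 and Col20a1 ranged from -0.38 for Col9a1 to 0.14 for Col9a3.

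Among the transmembrane collagens, Col23a1 (ENSMUSG00000063564, GRCm38 chr11:51289920-51583918, plus strand) stood at 4.74, 4.71 and 3.64 CPM in WT and 2.36, 2.96 and 2.48 CPM in M92KO. Every M92KO value was below every WT value, and its log2 fold change was -0.75 (SE 0.17, edgeR adjusted p = 0.185). It was -0.68 without WT replicate 1, -0.68 without M92KO replicate 1 and -0.62 without both. Col13a1, a chain of the neuromuscular junction, Col17a1 and Col25a1 had log2 fold changes from 0.0042 for Col13a1 to 0.20 for Col17a1 with overlapping groups.

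The short-chain network collagen Col8a1, known from vessel walls, stood at 12.9, 12.9 and 10.5 CPM in WT and 7.94, 21.6 and 17.0 CPM in M92KO. It had the most positive log2 fold change of the tested chains, 0.36 (SE 0.30, edgeR adjusted p = 0.689), with M92KO library 1 below and M92KO libraries 2 and 3 above every WT library, and it was 0.67 without M92KO replicate 1. Col8a2 stood at 1.73, 0.750 and 0.691 CPM in WT and 0.921, 0.458 and 0.633 CPM in M92KO, with a log2 fold change of -0.66 (edgeR adjusted p = 0.598) that was -0.10 without WT replicate 1. Col10a1, the chain of hypertrophic cartilage, had 0 to 4 counts in WT and 0 in each M92KO library and was not tested.

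Of the remaining chains, Col28a1 stood at 3.57, 4.79 and 3.52 CPM in WT and 2.42, 2.93 and 3.44 CPM in M92KO without overlap, with a log2 fold change of -0.43 (edgeR adjusted p = 0.419). Col26a1 also did not overlap, with a log2 fold change of -0.47 (edgeR adjusted p = 0.423). Col7a1, which forms the anchoring fibrils of skin, stood at 62.4, 63.2 and 66.7 CPM in WT and 103, 52.6 and 65.8 CPM in M92KO. M92KO library 1, the lowest library for all 10 chains over 100 CPM, was the highest for Col7a1, and the log2 fold change of 0.20 (edgeR adjusted p = 0.749) was -0.12 without it.

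Replicate 1 of each group stood apart from the rest in the collagen chains. M92KO library 1 was the lowest of the 6 libraries in 22 of the 41 tested chains, and WT library 1 was the highest in 16. The same counts over all genes were not made, so these need not be particular to collagen chains. M92KO library 1 also weighed on the whole table. Without it 399 genes had an edgeR adjusted p under 0.05, against none with all libraries. WT library 1 and M92KO library 1 held RNA of bone genes. Ibsp, a bone matrix protein, stood at 34.9, 0.569 and 0.461 CPM in WT and 8.06, 0 and 0.0551 CPM in M92KO, and the collagenase Mmp13, made by bone and cartilage cells, stood at 79.5, 1.89 and 0.775 and 23.5, 0.122 and 0.606 CPM. The bone cell factor Sp7 was at 1.32, 0.0518 and 0 CPM in WT and 0.432, 0 and 0.0826 CPM in M92KO, and the cartilage proteoglycan Acan at 2.86, 0 and 0.105 and 0.432, 0.122 and 0.165 CPM. Of the 8 cartilage and bone markers listed, 3 had enough counts to be tested and none had an unadjusted p under 0.05; the bone protein Bglap was at or under 0.336 CPM and Matn3 at or under 0.0649 CPM in every library. Their summed level was 5.18 to 44.1 CPM in WT and 3.88 to 13.6 CPM in M92KO, replicate 1 being the highest in each group. Most of the sum in replicate 1 was Ibsp alone, at 34.9 of 44.1 CPM in WT and 8.06 of 13.6 CPM in M92KO. Values of the other listed markers, Sox9, Runx2 and Hapln1, are not given here. Postn, a matrix protein of periosteum and tendon, stood at 119, 26.9 and 23.6 CPM in WT and 40.2, 30.5 and 28.8 CPM in M92KO. The part of bone or cartilage RNA in the collagen values was not tested.

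**Figure D4:**
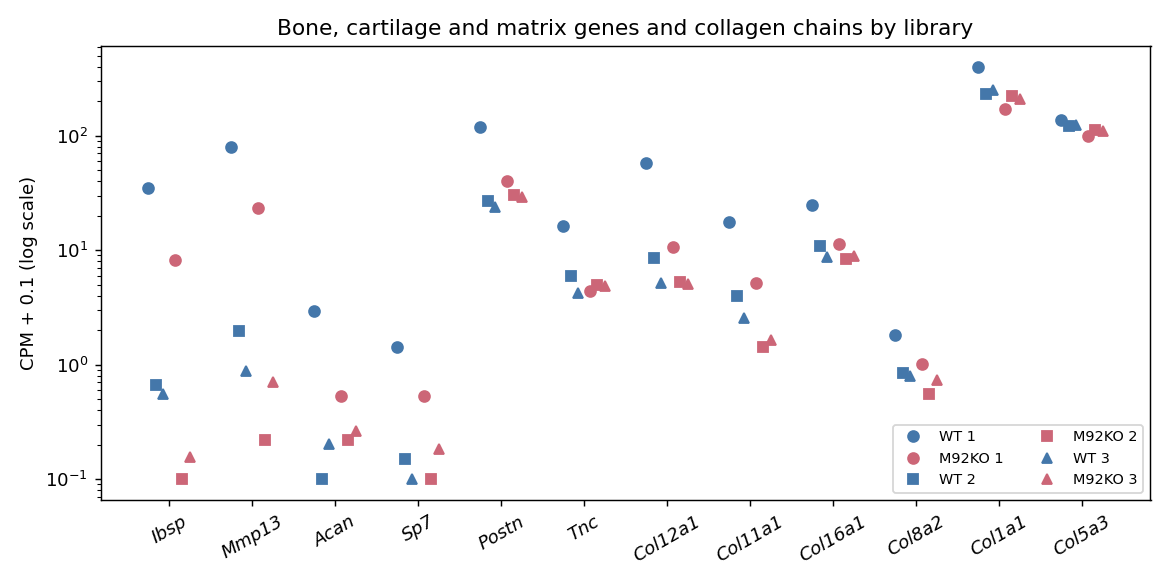
CPM + 0.1 on a log axis of bone, cartilage and matrix genes (left) and 6 collagen chains (right) in each library, blue for WT and red for M92KO, with circles, squares and triangles for replicates 1 to 3. WT 1 lies above the other WT libraries for Ibsp, Mmp13, Postn, Col12a1, Col11a1 and Col16a1, and M92KO 1 above the other M92KO libraries for the same genes, while the libraries of a group lie close together for Col5a3. For Col1a1, WT 1 lies above and M92KO 1 below every other library.

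With replicate 1 of both groups left out, a choice made after seeing these values, 13 chains were lower at an unadjusted p of 0.05, against 9.19% of all genes in that fit, and 3 were higher, against 8.79%. The median log2 fold change was -0.16. All 11 chains of the fit of all libraries were among the 13. The 3 higher chains were Col8a1 at 0.72, Col14a1 at 0.39 and Col18a1 at 0.25, which were also higher without M92KO replicate 1 alone, where 9.62% of all genes were higher. Of these Col8a1 had an edgeR adjusted p of 0.0478 without M92KO replicate 1 and 0.0471 without replicate 1 of both groups, in fits that gave 399 and 523 of all genes an adjusted p under 0.05. With 2 libraries a group the spread rests on few values.

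**Figure D5:**
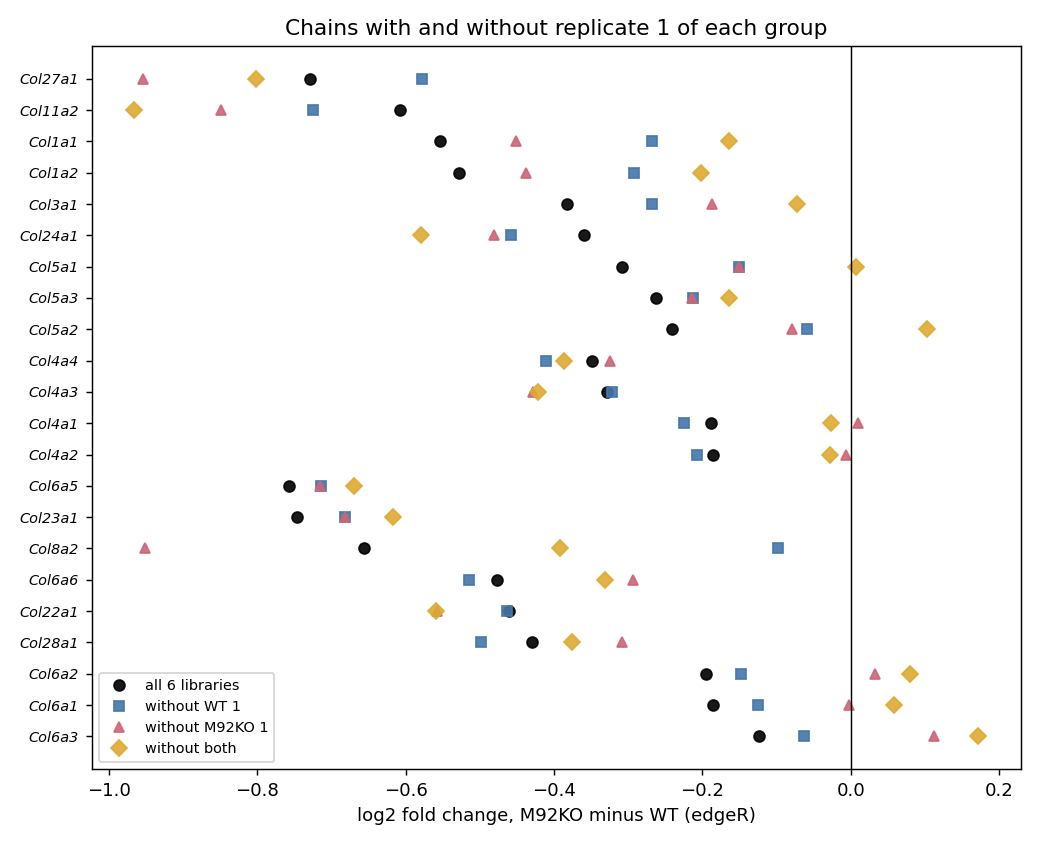
Log2 fold change (M92KO minus WT, edgeR) of the 22 chains described in most detail, 1 row per chain, with all 6 libraries (black), without WT replicate 1 (blue), without M92KO replicate 1 (red) and without both (yellow). Col23a1, Col27a1 and Col5a3 stay left of 0 in all 4 fits, Col1a1 and Col1a2 move toward 0 without WT 1, and Col6a1 to Col6a3 cross 0 without both.

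Chains must be hydroxylated, glycosylated and folded inside the cell before they leave it. In this and the following lists lower and higher mean an unadjusted p under 0.05, which over all genes was reached by 6.92% in the lower and 5.47% in the higher direction, and with lists this short 1 gene can be near those shares. Of 21 tested folding and modification genes, 1 was lower at an unadjusted p of 0.05 and 1 was higher, with a median log2 fold change of -0.02. The proline hydroxylase gene P3h3 had a log2 fold change of -0.32 (edgeR adjusted p = 0.261), and P4hb, the disulfide isomerase that is also a subunit of prolyl hydroxylase, one of 0.24 (edgeR adjusted p = 0.217). Serpinh1, the collagen chaperone, stood at 141, 134 and 165 CPM in WT and 112, 138 and 133 CPM in M92KO, with overlapping groups. Of 14 cleavage and crosslinking genes 1 was lower, the procollagen protease Adamts3 at -1.08 (edgeR adjusted p = 0.297), and Lox, which crosslinks fibres, had a log2 fold change of -0.17 (edgeR adjusted p = 0.803).

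Among collagen breakdown genes 7 of 12 tested were lower at an unadjusted p of 0.05 and none was higher, with all 12 negative and a median of -0.34. They included both proteases and inhibitors of proteases. Timp3, an inhibitor of metalloproteinases, stood at 234, 249.7 and 254 CPM in WT and 193, 195 and 199 CPM in M92KO (log2 fold change -0.33, edgeR adjusted p = 0.178). Mmp2, a gelatinase, stood at 78.7, 67.5 and 67.9 CPM in WT and 41.5, 52.9 and 54.3 CPM in M92KO (log2 fold change -0.53, edgeR adjusted p = 0.178). The membrane protease gene Mmp15 had a log2 fold change of -0.34 (edgeR adjusted p = 0.178) and the inhibitor gene Timp2 one of -0.26 (edgeR adjusted p = 0.316), and in all 7 the groups did not overlap (9.58% of all genes did so in the lower direction). Without WT replicate 1, 3 of the list were lower and 1 was higher.

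Cells hold on to collagen through integrins and other receptors, of which 3 of 11 tested were lower and 1 was higher. With 1 library left out 0 (without WT replicate 3) to 2 were lower, with 1 lower without WT replicate 1 or M92KO replicate 3, and none was higher without M92KO replicate 2 or 3. Adgrg1, a receptor that binds type III collagen, had a log2 fold change of -0.42 (edgeR adjusted p = 0.285), the integrin gene Itga1 one of -0.34 (edgeR adjusted p = 0.387), Itga10 one of -0.38 (edgeR adjusted p = 0.394) and the proteoglycan gene Cspg4 one of 0.43 (edgeR adjusted p = 0.312). None of 11 basement membrane partners, which are laminins, nidogens, perlecan, agrin and peroxidasin, passed an unadjusted p of 0.05, and their median was -0.06. M92KO library 1 was again the lowest for Lama2, Lama4, Lamb1, Lamc1, Nid1, Nid2, Hspg2 and Pxdn, 8 of the 11, and the highest for 2, Lama5 (108, 108 and 98.3 CPM in WT and 139.9, 102 and 107 CPM in M92KO) and Agrn (54.5, 55.6 and 53.4 and 65.6, 54.9 and 53.8 CPM). How often it was the lowest or highest over all genes was not counted. Of 14 TGF-beta and matrix regulators 3 were lower, namely Ccn1 at -1.32, Tgfb3 at -0.18 and Smad3 at -0.21 (edgeR adjusted p of 0.354, 0.362 and 0.399). None of the 14 was lower without WT replicate 3, without M92KO replicate 1 or without M92KO replicate 2. The groups of Ccn1 overlapped, at 35.3, 92.4 and 207 CPM in WT and 42.5, 52.3 and 39.2 CPM in M92KO, and its log2 fold change ranged from -1.75 to -0.51 with 1 library left out.

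Markers of the cells that make or surround collagen were read the same way. Of 14 fibroblast markers 2 were lower and 1 was higher, and their summed level was 1683 to 1936 CPM in WT and 1425 to 1777 CPM in M92KO. Dcn, a proteoglycan that binds type I fibrils, stood at 420.2, 399.5 and 399.8 CPM in WT and 295, 322 and 351 CPM in M92KO (log2 fold change -0.33, edgeR adjusted p = 0.188), whereas Ly6a had a log2 fold change of 0.37 (edgeR adjusted p = 0.234) and Pdgfra one of -0.10 (edgeR adjusted p = 0.752). Smoc2, the other lower marker, had a log2 fold change of -0.38 (edgeR adjusted p = 0.281).

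Of 9 tendon markers 4 were lower at an unadjusted p of 0.05 and none was higher, with all 9 negative and a median of -0.84. Kera, a proteoglycan of tendon and cornea, stood at 4.89, 6.86 and 7.37 CPM in WT and 1.50, 1.92 and 2.78 CPM in M92KO (log2 fold change -1.62, edgeR adjusted p = 0.165). Tnmd, a membrane protein of tendon cells, stood at 5.73, 5.67 and 4.36 CPM in WT and 2.85, 2.56 and 2.97 CPM in M92KO (log2 fold change -0.91, edgeR adjusted p = 0.165). In both the groups were well apart. The tendon factor Scx had a log2 fold change of -0.37 (edgeR adjusted p = 0.377) and the fibril proteoglycan gene Fmod one of -0.71 (edgeR adjusted p = 0.393). The summed level of tendon markers was 162 to 315 CPM in WT and 153 to 177 CPM in M92KO. Much of the WT range came from Egr1, an immediate early gene, at 18.2, 104 and 204 CPM in WT and 59.7, 74.5 and 31.0 CPM in M92KO, and without it the sums overlapped, at 144, 137 and 111 CPM in WT and 99.99, 102 and 122 CPM in M92KO. With 1 library left out the list's median ranged from -0.92 to -0.43, and 2 of the 9 were lower without M92KO replicate 2, where the median was nearest 0, or without M92KO replicate 3. The part of the amount of tendon in the collagen values was not tested.

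Schwann cell markers were lower in 4 of 8, among them the myelin gene Mbp at -0.39 (edgeR adjusted p = 0.313), Pmp22 at -0.23 and Cdh19 at -0.54 (edgeR adjusted p of 0.347 and 0.347), but in 0 of 8 without WT replicate 1 or without WT replicate 2. Endothelial markers were lower in 2 of 10, Tie1 at -0.23 and Flt1 at -0.21 (edgeR adjusted p of 0.258 and 0.352). Of 9 mural cell markers 1 was lower, Rgs5 at -0.19 (edgeR adjusted p = 0.361), and 1 was higher, Cspg4. Of 8 macrophage markers Ptprc was lower at -0.53 (edgeR adjusted p = 0.304), and of 12 muscle fibre markers none was lower and Myh2 was higher at 0.70 (edgeR adjusted p = 0.314). Of 6 fat cell markers tested Plin4 was lower at -0.43 (edgeR adjusted p = 0.336), but it alone was negative and the list's median was 0.73. Summed, the 7 listed fat cell markers gave 432, 479 and 641 CPM in WT. In M92KO they gave 433, 417 and 323 CPM, so the sum was not higher there. Without WT replicate 3 none of the 6 was lower and 3 were higher, and without M92KO replicate 3 none was lower and 2 were higher. With 1 library left out the number lower was 1 to 5 of 10 endothelial, 0 to 1 of 9 mural, 0 to 2 of 8 macrophage and 2 to 4 of 14 fibroblast markers. No list was left without detected markers, and the muscle fibre markers summed to 151294 to 169439 CPM in WT and 152987 to 162668 CPM in M92KO. Over all 161 tested genes of these lists 30 were lower and 4 were higher.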

How the data were processed

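RNA was taken from Gas muscle of WT and M92KO mice at 8 weeks of age (3 libraries per group), and libraries were made from 1.3 µg of total RNA with a SMARTER mRNA-Seq kit. The authors deposited 1 table of raw read counts per gene symbol, and these counts were used as deposited; the submitters' processing notes name the build GRCm38 (mm10), and the aligner, counter and use of strand are not given in the sources used here. Groups and replicate numbers were taken from the sample labels. Genes were filtered with filterByExpr (minimum count 10, minimum total 15), scaled by TMM and tested with the edgeR 4.0.16 quasi-likelihood test (R 4.3.3), with Benjamini-Hochberg adjusted p over all genes tested; the script was tested on simulated data. DESeq2 1.42.0 and limma 3.58.1 on quantile-normalized log2(count + 1) were alternatives, with other filters, GC and length offsets, a replicate block, thinning and left-out libraries. The floor of 3 counts was 0.0628 to 0.0916 CPM, which covers counting error only. Gene positions and transcript lengths are from GENCODE M21 and promoters from RefSeq; 25731 symbols matched directly and 421 as synonyms. Values per library are given for types I, III, IV (alpha 1 and 2), V and VI, for the chain with the smallest p in each class and for chains with an unadjusted p under 0.05; in each list up to 4 genes under 0.05 are named, smallest p first, and other genes were named after their values were seen; 1 gene that this rule would name is not reported here. The members and the gene lists were chosen with earlier results of these data known. Exact permutation of 3 against 3 libraries cannot go below p = 0.10. Figures were drawn with matplotlib 3.10.9.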

Additional observations from a re-analysis of the deposited data

How the results depend on the processing

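Against 11 lower collagen chains in the fit of all libraries, 17 were counted with no filter on low counts, 5 with quantile normalization and limma, 7 with GC and length offsets, 7 with these offsets and the replicate block, and 12 with DESeq2; a chain counted as lower had an unadjusted p under 0.05. The shares of all genes lower in these fits were 6.92, 5.66, 3.0, 6.57, 5.71 and 6.13%. The fits with no filter and with limma held all 44 chains, those with few counts among them, and the other fits 41. The share with no filter is of 23231 genes, and that with limma is of all 34714 rows of the count table. Leaving out 1 library gave 7 (without WT replicate 2) to 12 lower chains and 0 to 3 higher chains, the 3 arising without M92KO replicate 1, and without replicate 1 of both groups 13 were lower and 3 higher. Over all genes 4.32 to 8.96% were lower and 3.32 to 9.62% higher with 1 library left out, the highest shares without M92KO replicate 1, and 9.19 and 8.79% without replicate 1 of both groups, so the 3 higher chains of 41 were not above the share of all genes. The median log2 fold change of the chains ranged from -0.37 to -0.21 with 1 library left out and was -0.16 without replicate 1 of both groups. Genes of the pathway lists that were lower numbered 17 with quantile normalization and limma and 19 (without WT replicate 1) to 26 with 1 library left out and 28 without replicate 1 of both groups, against 30; those higher numbered 7 with no filter, 2 to 11 with 1 library left out and 14 without replicate 1 of both groups, against 4. The log2 fold change of Col4a1 turned to 0.010, of Col6a2 to 0.032 and of Col6a3 to 0.11 without M92KO replicate 1, and without replicate 1 of both groups that of Col5a1 turned to 0.0067, Col5a2 to 0.10, Col6a1 to 0.059, Col6a2 to 0.080 and Col6a3 to 0.17. Without M92KO replicate 2, where each was lowest, the values were -0.32 for Col4a1, -0.43 for Col5a1, -0.37 for Col5a2, -0.33 for Col6a1, -0.39 for Col6a2 and -0.34 for Col6a3. The causes were not tested, beyond that fewer libraries entered these fits. The labels give WT and M92KO libraries the same numbers. Deviations of same-numbered libraries from their group means correlated by 0.08, 0.04 and 0.02. The value for replicate 1 was the highest of all WT and M92KO pairs, whereas WT 3 correlated best with M92KO 2. Correlations this weak, from 3 libraries a group, cannot tell whether the numbers pair the libraries. With the replicate block 14 chains were lower, against 6.37% of all genes, and 0 higher, against 4.35%, with a median of -0.33. Counting error matters most for the 20 of 41 chains at or under 10 CPM in WT.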
